A study of Mus musculus with 9 samples.

Results

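Expression of the enzymes that methylate DNA and of those that remove methylation was examined in mouse ESCs before and after induction of a forced E2A homodimer. The genes were Dnmt1, Dnmt3a, Dnmt3b, Dnmt3l, Uhrf1, Tet1, Tet2, Tet3 and Tdg, which were chosen by name for their role in the pathway and matched to the gene names of the expression table. Earlier results of these data were known when these genes and the related lists below were chosen, so their counts are descriptions. These 9 genes were found among the 47729 genes listed, and all 9 had a mean FPKM (fragments counted on a gene, scaled for its length and for the size of the library) of at least 0.1 over the libraries. They therefore entered the test with 17951 genes in all. The ESCs, pluripotent cells from the early embryo, were kept in LIF/serum and carried a doxycycline (dox)-inducible transgene in which FLAG-tagged E47, an isoform of the bHLH transcription factor E2A, is tethered to a further E47 molecule. The transgene was placed upstream of Hprt by cassette exchange, and every library came from cells that carried it. RNA was taken from untreated cells (0 h) and from cells that had received 1 µg/ml dox for 18 h or 24 h, in 3 biological replicates per time point. Dox-treated cells that lack the transgene are not part of these libraries and were not analysed here, so an effect of dox itself and an effect of the homodimer cannot be told apart. Untreated cells at 18 h or 24 h are not part of them either. An effect of the added time in culture therefore cannot be told apart from these in any comparison with 0 h. The titles and treatment entries of the samples give 18 h and 24 h, whereas the general treatment note gives other times. The labels name the same inducible line for every sample.

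Methyl groups are placed on cytosine in CpG dinucleotides by DNA methyltransferases. Dnmt3a and Dnmt3b methylate unmodified sites de novo, with Dnmt3l as a partner that lacks catalytic activity, and Dnmt1 copies existing methylation to the new strand after replication, guided by Uhrf1, which recognises hemimethylated DNA. Tet1, Tet2 and Tet3 oxidise 5-methylcytosine, and Tdg excises the oxidised bases so that base excision repair can restore unmodified cytosine. ESCs in serum are known for high expression of the de novo enzymes and of Tet1, and for the rise of Tet3 and the loss of Dnmt3l on differentiation. The data here are RNA levels, and DNA methylation itself was not measured.

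The 9 libraries held 22028363 to 26471569 reads on the 19210 genes that passed the filter of the authors. Tcf3, the gene that encodes E2A, had 37.7 to 41.2 FPKM at 0 h and 93.6 to 116 FPKM with dox, although reads from the transgene can be counted on it. The 8 ESC markers examined were all expressed, with a summed level of 1177 to 1838 FPKM at 0 h, 971 to 1557 FPKM at 18 h and 932 to 1539 FPKM at 24 h. At 24 h Nanog passed the test as higher and Pou5f1 as lower, and when the replicate number was included as a block Klf4 also passed as higher and Tfcp2l1 and Dppa5a as lower. Of the 8 markers of fibroblasts, a cell type that an ESC culture can hold, Col1a1, Col1a2 and Dcn were detected at a mean of 1.85 to 3.61 FPKM at each time point, none was listed at 0 on average, and the list summed to 5.41 to 14.1 FPKM at 0 h and 6.85 to 11.6 FPKM at 24 h. The 7 primitive endoderm markers summed to 4.17 to 6.14 FPKM over all libraries. Of these 2 lists, Pdgfrb was the gene that passed the test at 24 h, and it was higher, while Dcn passed as lower only with the block (adjusted p of 0.0389 in limma). The part of other cells in the values below was not tested, and fewer cells of a type cannot be told apart from less RNA per cell.

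Dnmt3l was the member that changed most, and it was downregulated at 24 h, while no other member passed the test in limma at either time without a replicate block. Changes were tested with limma on log2(FPKM+0.1) over all genes, and a gene passed where its adjusted p (Benjamini–Hochberg) was 0.05 or less. At 24 h compared with 0 h 1 of the 9 members was lower and 0 were higher, and 3 had an unadjusted p under 0.05. Over all genes tested 5.11% (917) were lower and 6.52% (1171) higher, and centring each library on its median turned this to 1598 lower and 839 higher without altering the call of any member. At 18 h compared with 0 h none of the 9 passed in limma, 1 had an unadjusted p under 0.05, and Dnmt3l alone passed in both edgeR and DESeq2. The shares over all genes in limma were 3.72% (667) lower and 4.27% (766) higher, or 841 and 623 genes after median centring. Of 19210 genes, 872 were lower and 1110 higher in edgeR, and 1165 and 1298 in DESeq2. With the further requirement of a change of at least 2-fold, Dnmt3l was the member that was lower at 24 h and no member was at 18 h, against 0.836% and 0.724% of all genes. Between 18 h and 24 h no member passed in limma, edgeR or DESeq2 and none had an unadjusted p under 0.05, and 0.0167% of all genes were higher and 0.00557% lower.

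Same-numbered replicates deviated together, so the number was also used as a block in the fit, in limma unless edgeR is named. With the block in limma, Dnmt3l and Dnmt3b were lower and Tet3 higher at 24 h, against 12.5% of all genes lower and 13.6% higher. At 18 h Dnmt3l was lower and Tet1 higher with the block in limma, against 10.7% and 10.8% of all genes. No member passed between 18 h and 24 h with the block in limma, where 0.0111% of all genes were lower and 0.0334% higher, although 2 members had an unadjusted p under 0.05 and Dnmt3l passed as lower in edgeR with the block. The blocked fit in edgeR also passed Tet2 at 24 h and Dnmt3b, Tet2 and Tet3 at 18 h. Of the 19210 genes in that fit, 2867 were lower and 3157 higher at 24 h, and 2507 and 2675 at 18 h. Between 18 h and 24 h 56 were lower and 157 higher in it. At 18 h 7 of the 9 members had a difference of the same sign in all 3 replicate numbers, as did 52.4% of all genes tested. At 24 h 5 did so, and so did 56.0% of all genes. Dnmt3l was the member whose libraries with dox did not overlap those at 0 h, which held for 28.1% of all genes at 18 h and for 31.3% at 24 h.

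**Figure D1:**
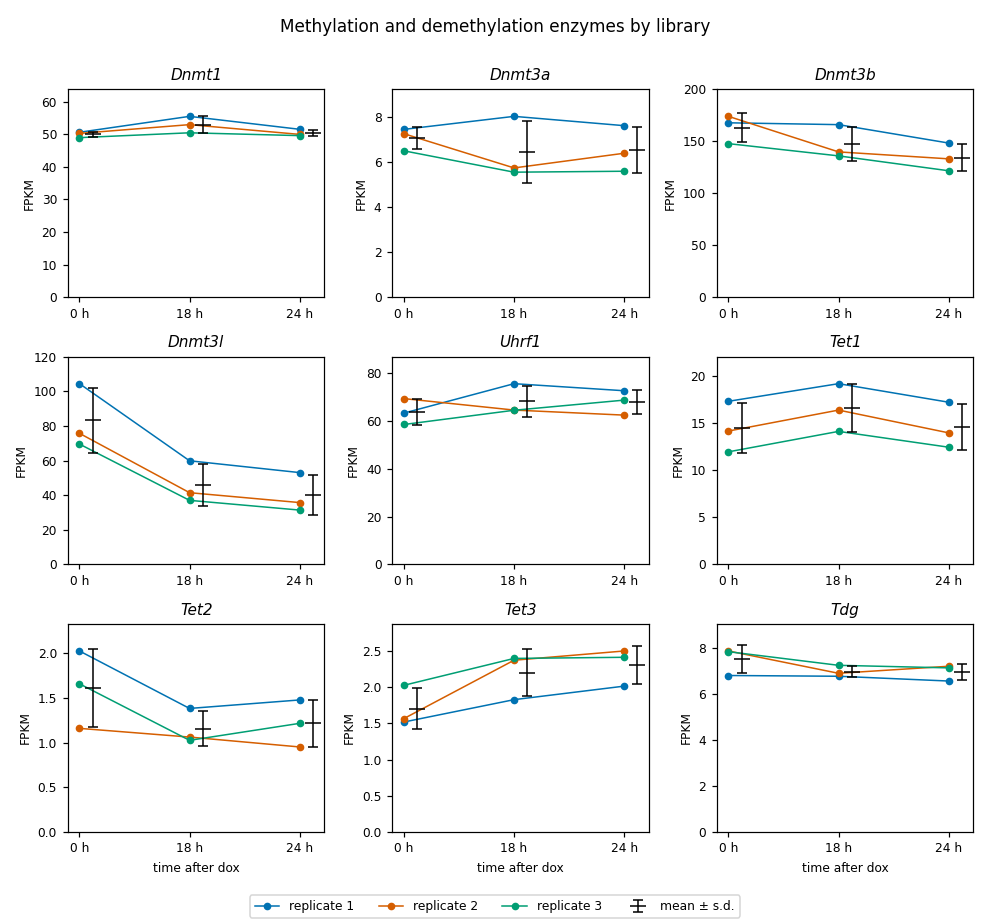
FPKM of each gene (y axis, linear, from 0) by time after dox (x axis), with lines joining the libraries of a replicate number and black bars for the mean ± s.d. of 3 libraries. Dnmt3l falls from 69.6 to 104 FPKM at 0 h to 31.4 to 53.1 FPKM at 24 h in all replicate numbers, while the ranges of the other 8 genes overlap between 0 h and 24 h.

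Dnmt3l (ENSMUSG00000000730) is a plus-strand gene of chromosome 10 (78041947 to 78063622, GRCm38). Its level was 104, 75.8 and 69.6 FPKM in replicates 1, 2 and 3 at 0 h. At 18 h it was 59.9, 41.5 and 37.0 FPKM, and at 24 h 53.1, 35.8 and 31.4 FPKM, in the same order. Every library with dox was below every library at 0 h, and replicate 1 was the highest at each time point. The mean was 83.3 ± 18.6 FPKM at 0 h, 46.1 ± 12.1 FPKM at 18 h and 40.1 ± 11.5 FPKM at 24 h (s.d., n = 3). Its log2 fold-change after 24 h came to -1.07 ± 0.238 (standard error, as for all fold-changes below), or 2.10-fold lower, with a 95% interval of -1.60 to -0.53 and an adjusted p of 0.0228. At 18 h it was -0.86 ± 0.238, or 1.81-fold lower, with an adjusted p of 0.0585 that misses the threshold.

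The replicates of Dnmt3l differed in level more than in change. Within replicate numbers 1, 2 and 3 the log2 change was -0.80, -0.87 and -0.91 at 18 h and -0.98, -1.08 and -1.14 at 24 h. With the replicate block the adjusted p in limma was 0.000104 at 18 h and 4.07e-05 at 24 h. At 18 h edgeR and DESeq2 on the recovered reads gave adjusted p values of 0.0223 and 0.0368, and at 24 h 0.00589 and 0.00504. Without the block the call at 24 h was lost when a single library was left out, with an adjusted p in limma of 0.0809 without replicate 1 at 0 h, 0.0856 without replicate 2 at 24 h and 0.0886 without replicate 3 at 24 h. The log2 fold-change then was -0.89, -1.003 and -0.91. Conversely, the change at 18 h passed without replicate 1 at 18 h (-1.06, adjusted p of 0.0381 in limma) and without replicate 1 at 24 h (-0.86, adjusted p of 0.0415). From 18 h to 24 h Dnmt3l was lower in 3 of 3 replicate numbers, by 0.17, 0.21 and 0.24 on the log2 scale. That difference passed in edgeR with the block (adjusted p of 0.0452) and not in limma with the block (adjusted p of 0.213).

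Dnmt3l shares 67 exonic bases with Aire, a transcriptional regulator on the opposite strand, and how strand was used in the counting is not given in the sources used here. Aire was at 2.89 to 5.75 FPKM at 0 h and 1.12 to 3.23 FPKM at 24 h, and its log2 fold-change then was -1.14 ± 0.459, with an adjusted p of 0.141 in limma (0.00711 with the block). It had 109 to 525 reads in a library, against 2556 to 7446 on Dnmt3l. The part of the shared bases in either value was not tested.

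**Figure D2:**
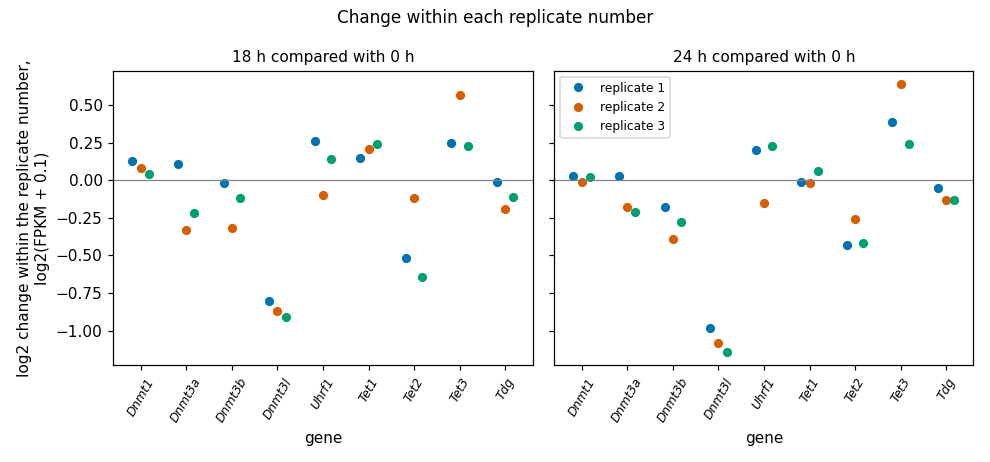
Log2 change of each gene (y axis, log2(FPKM+0.1)) from 0 h to 18 h (left) and to 24 h (right) within replicate numbers 1, 2 and 3 (points). The 3 points of Dnmt3l lie close together between -0.80 and -1.14. Those of Dnmt3a and Uhrf1 fall on both sides of 0 in both panels, and those of Dnmt1 and Tet1 do so at 24 h.

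E2A binds E boxes, which have the sequence CANNTG, and prefers the form CAGGTG, which reads as CACCTG on the opposite strand, and the form CAGCTG. The RefSeq promoter windows (250 bases before to 50 after an annotated start, GRCm38.p6) of Dnmt3l, Dnmt3b and Tet3 are shown because these are the genes that passed at 24 h with the block in limma, with each CANNTG word in capitals and each sequence written 5′ to 3′ on the strand of its gene. The window of the first annotated start of Dnmt3l is at chr10:78042037-78042336 (plus strand), that of Dnmt3b at chr2:153649199-153649498 (plus strand) and that of Tet3 at chr6:83441629-83441928 (minus strand).
Dnmt3l: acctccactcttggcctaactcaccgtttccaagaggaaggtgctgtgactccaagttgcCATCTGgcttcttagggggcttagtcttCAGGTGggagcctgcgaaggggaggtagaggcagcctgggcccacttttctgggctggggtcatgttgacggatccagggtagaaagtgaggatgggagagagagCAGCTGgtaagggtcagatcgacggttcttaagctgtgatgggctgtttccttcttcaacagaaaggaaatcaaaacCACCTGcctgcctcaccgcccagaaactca
Dnmt3b: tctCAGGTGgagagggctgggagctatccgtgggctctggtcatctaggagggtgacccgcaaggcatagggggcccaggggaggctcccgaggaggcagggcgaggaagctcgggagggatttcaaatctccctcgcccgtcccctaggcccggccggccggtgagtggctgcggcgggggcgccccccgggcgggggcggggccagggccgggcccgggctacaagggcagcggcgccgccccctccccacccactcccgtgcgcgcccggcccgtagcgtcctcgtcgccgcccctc
Tet3: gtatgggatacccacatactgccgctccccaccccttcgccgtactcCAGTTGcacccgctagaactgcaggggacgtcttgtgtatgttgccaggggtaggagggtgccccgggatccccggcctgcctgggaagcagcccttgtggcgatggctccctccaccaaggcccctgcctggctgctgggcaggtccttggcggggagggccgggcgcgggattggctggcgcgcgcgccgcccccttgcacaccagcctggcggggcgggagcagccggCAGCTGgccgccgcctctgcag

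The first window of Dnmt3l held 4 E boxes, at 190, 162 and 57 bases before the start and 21 bases after it, and 3 of them were of the preferred forms. The second annotated start of Dnmt3l had 1 E box, the form CACGTG, and the third had 0. The window of Dnmt3b held CAGGTG at 247 bases before the start, and that of Tet3 held CAGTTG at 203 bases before and CAGCTG at 29 bases after the start. A preferred form was also present in the first window of Dnmt1, with CAGGTG at 36 bases after the start, although Dnmt1 passed in no fit. The windows of Uhrf1, Tet1 and Tdg and the third window of Dnmt3a held E boxes of other forms only. A match is only a sequence word. CANNTG, which reads as CANNTG on the other strand too, occurred in 72.3% of the 32851 windows of the table, and a preferred form in 32.9%. At least 4 E boxes occurred in 6.50% of windows, and at least 3 of the preferred forms in 1.39%. Among the 16 windows of the 9 genes, those of Dnmt3a at its first and second starts, that of Tet2 and the third of Dnmt3l held no CANNTG. Which start was used in these cells, and whether E2A was bound, was not analysed here.

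Dnmt3b was the most abundant member at every time point and was lower with dox in each replicate number, by an amount that passed only in some fits. This de novo methyltransferase (chromosome 2, 153649450 to 153687730, plus strand) was at 168, 174 and 148 FPKM in replicates 1, 2 and 3 at 0 h. The values were 166, 139.7 and 136 FPKM at 18 h and 148, 133 and 122 FPKM at 24 h. Replicate 1 at 24 h was just above replicate 3 at 0 h, so the ranges overlapped by that pair. Its log2 fold-change came to -0.15 ± 0.102 after 18 h (adjusted p of 0.400 in limma) and -0.28 ± 0.102 after 24 h (95% interval -0.51 to -0.05, adjusted p of 0.109). At 24 h the adjusted p was 0.0121 in limma with the block, 0.0672 in edgeR, 0.000216 in edgeR with the block and 0.0420 in DESeq2. At 18 h it passed in edgeR with the block (adjusted p of 0.0329) and not in limma with the block (adjusted p of 0.102). Its antisense transcript Dnmt3bos shares no exonic base with it and was at most at 0.58 FPKM. The nearby paralog Dnmt3c, 93.3% identical over 1655 aligned bases, was at most at 0.06 FPKM.

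Dnmt3a, the other de novo methyltransferase (chromosome 12, 3806007 to 3914443, plus strand), was expressed at a far lower level and did not pass in any fit. It was at 7.46, 7.26 and 6.50 FPKM at 0 h, 8.04, 5.74 and 5.55 FPKM at 18 h and 7.62, 6.40 and 5.60 FPKM at 24 h. Replicate 1 with dox stood above all libraries at 0 h and replicates 2 and 3 with dox below all of them. Its log2 fold-change came to -0.15 ± 0.155 at 18 h and -0.12 ± 0.155 at 24 h, with a 95% interval of -0.47 to 0.23 at 24 h and adjusted p values of 0.587 and 0.652 in limma. The FPKM of Dnmt3b was 23.0 times that of Dnmt3a at 0 h, 23.1 times at 18 h and 20.6 times at 24 h as geometric means. On the log2 scale the ratio was 4.53 ± 0.05 at 0 h and 4.37 ± 0.08 at 24 h (s.d., n = 3). Its difference of -0.16 was lower in 3 of 3 replicate numbers, with a p of 0.1 in a two-sided exact permutation test, the smallest that 3 libraries against 3 can give. The summed FPKM of Dnmt3a, Dnmt3b and Dnmt3l was 224 to 279.7 at 0 h and 159 to 209 at 24 h. The FPKM of Dnmt3l relative to the sum of Dnmt3a and Dnmt3b went from 0.596, 0.418 and 0.451 at 0 h to 0.341, 0.256 and 0.247 at 24 h, so that all libraries at 24 h were below all at 0 h.

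Neither of the maintenance genes passed in any fit. Dnmt1 (chromosome 9, 20907209 to 20959888, minus strand) was at 50.6, 50.2 and 48.9 FPKM at 0 h, 55.5, 52.9 and 50.4 FPKM at 18 h and 51.5, 49.9 and 49.6 FPKM at 24 h. The change in log2 was 0.08 ± 0.0509 at 18 h and 0.01 ± 0.0509 at 24 h, and the 95% interval at 24 h was -0.10 to 0.13. The adjusted p in limma was 0.343 and 0.908, and the sign at 24 h turned in DESeq2 (-0.001) and with median centring (-0.065). Uhrf1 (chromosome 17, 56303321 to 56323486, plus strand) was at 63.2, 69.2 and 58.4 FPKM at 0 h. It was at 75.5, 64.5 and 64.4 FPKM at 18 h and at 72.5, 62.4 and 68.6 FPKM at 24 h. Replicates 1 and 3 were higher with dox and replicate 2 lower, and the change in log2 was 0.10 ± 0.0900 at 18 h and 0.09 ± 0.0900 at 24 h (95% interval -0.11 to 0.30, adjusted p of 0.537 in limma). Its processed pseudogene Gm5648, 98.3% identical over 1590 aligned bases, was at 0.02 to 0.28 FPKM. A change of Dnmt1 or Uhrf1 beyond these intervals was not detected, and changes within them remain possible.

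**Figure D3:**
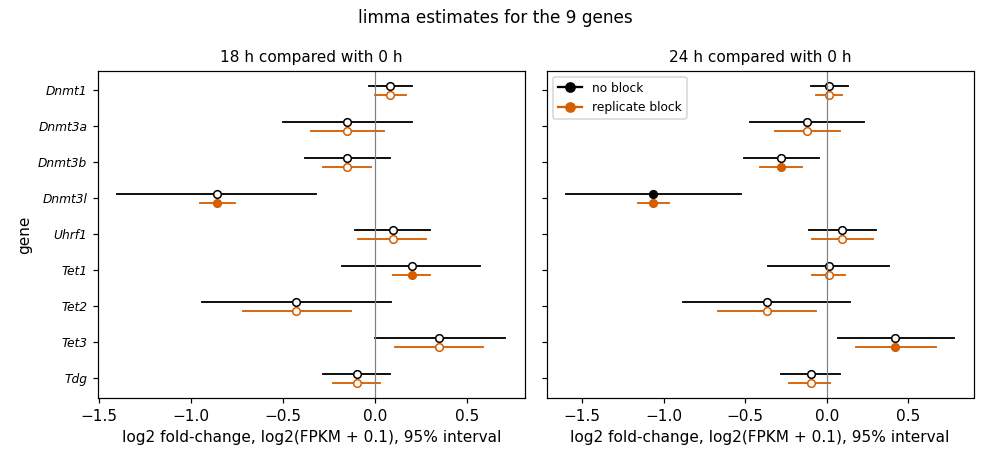
Log2 fold-change of each gene (x axis, log2(FPKM+0.1)) with its 95% interval in limma, without the replicate block (black) and with it (orange), at 18 h (left) and 24 h (right) compared with 0 h. Filled points have an adjusted p of at most 0.05, which without the block is the case for Dnmt3l at 24 h alone, and the block shortens the interval of Dnmt3l and Tet1 most visibly.

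Tet1 was the most abundant of the Tet dioxygenases and its level differed more between replicate numbers than between time points. Tet1 (chromosome 10, 62804570 to 62908996, minus strand) was at 17.3, 14.1 and 11.9 FPKM in replicates 1, 2 and 3 at 0 h. It was at 19.2, 16.4 and 14.1 FPKM at 18 h and at 17.2, 14.0 and 12.4 FPKM at 24 h. Replicate 1 was highest and replicate 3 lowest at each time point. At 18 h the level was higher in 3 of 3 replicate numbers, by 0.15, 0.21 and 0.24 on the log2 scale. The log2 fold-change of 0.20 ± 0.166 had an adjusted p of 0.498 in limma, 0.0170 with the block and 0.00388 in edgeR with the block. At 24 h it was 0.01 ± 0.166 (adjusted p of 0.977, 95% interval -0.36 to 0.38), a value near 0 whose sign turned in edgeR and DESeq2 and with median centring.

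Tet2 and Tet3 were both low, and with dox the values of Tet2 were lower and those of Tet3 higher in each replicate number. Tet2 (chromosome 3, 133463679 to 133545139, minus strand) was at 2.03, 1.16 and 1.66 FPKM at 0 h, 1.38, 1.06 and 1.02 FPKM at 18 h and 1.48, 0.95 and 1.21 FPKM at 24 h. These values rest on 409 to 815 reads a library. Replicate 2 was the lowest at 0 h, and the ranges at 18 h and 24 h overlapped that at 0 h. Its log2 fold-change came to -0.43 ± 0.228 at 18 h and -0.37 ± 0.228 at 24 h, with adjusted p values of 0.279 and 0.322 in limma and 0.0515 and 0.0698 with the block. In edgeR with the block the adjusted p was 0.000868 and 0.00184.

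Tet3 (chromosome 6, 83362373 to 83459084, minus strand), a Tet enzyme expressed in the zygote and, among other cells, in neural cells, was at 1.52, 1.57 and 2.03 FPKM at 0 h. It was at 1.83, 2.37 and 2.40 FPKM at 18 h and at 2.02, 2.5 and 2.41 FPKM at 24 h, on 605 to 1098 reads a library. Replicate 1 was the lowest at each time point, and replicate 1 at 24 h lay just below replicate 3 at 0 h. Its log2 fold-change came to 0.35 ± 0.158 at 18 h and 0.42 ± 0.158 at 24 h (95% interval 0.07 to 0.78). The adjusted p in limma was 0.203 and 0.117, and 0.0503 and 0.0239 with the block. In edgeR with the block it was 0.00192 and 0.000326, so that Tet3 passed at both times in that fit. After 24 h the adjusted p was 0.0503 in edgeR and 0.0240 in DESeq2.

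The summed FPKM of the Tet transcripts was 20.8, 16.9 and 15.6 in replicates 1, 2 and 3 at 0 h. After 18 h of dox the sum was 22.4, 19.8 and 17.5, and after 24 h 20.7, 17.4 and 16.1. It was higher at 18 h in 3 of 3 replicate numbers, with ranges that overlapped and a mean difference of 2.12 FPKM (p of 0.4 in a two-sided exact permutation test, and 0.25 in an exact sign-flip test within pairs, the smallest that 3 pairs can give). Tet1 made up 83.0%, 83.8% and 76.4% of this sum in replicates 1, 2 and 3 at 0 h and 83.1%, 80.2% and 77.4% at 24 h, a difference in means of -0.856 percentage points with a p of 0.9 in a two-sided exact permutation test. The share of Tet3 was 7.29%, 9.29% and 13% at 0 h and 9.74%, 14.4% and 15.0% at 24 h. That of Tet2 was 9.72%, 6.87% and 10.6% at 0 h and 7.14%, 5.46% and 7.56% at 24 h. At 0 h Tet3 was below Tet2 in replicate 1 and above it in the others, and at 18 h and 24 h it was above Tet2 in every library.

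Tdg (chromosome 10, 82629828 to 82650799, plus strand), the glycosylase that excises the oxidised bases, was at 6.80, 7.86 and 7.83 FPKM at 0 h. It was at 6.76, 6.89 and 7.24 FPKM at 18 h and at 6.55, 7.20 and 7.13 FPKM at 24 h. Its log2 fold-change came to -0.10 ± 0.0799 at both times, with adjusted p values of 0.467 and 0.432 in limma. It was lower in 3 of 3 replicate numbers, by at most 0.19 on the log2 scale. The level of Tdg is uncertain, because the processed pseudogene Gm9855 on the same chromosome is 99.2% identical to it over 1194 aligned bases and was listed at 27.7 to 33.6 FPKM. Tdg had 831 to 1043 reads a library and Gm9855 848 to 981, and reads from the shared sequence may be split between them. Gm9855 differed by -0.09 ± 0.0728 on the log2 scale after 24 h (adjusted p of 0.460 in limma). The summed FPKM of both was 38.2 to 41.4 at 0 h and 34.8 to 39.3 at 24 h. Of the other copies with a value in the table, Gm5597 was at most at 0.31 FPKM and Tdg-ps at most at 0.07 FPKM, and the overlapping gene Glt8d2 was at most at 0.05 FPKM.

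The order of the 9 genes by mean FPKM, which is scaled to gene length, was Dnmt3b, Dnmt3l, Uhrf1, Dnmt1, Tet1, Tdg, Dnmt3a, Tet3 and Tet2 at 0 h. With dox Dnmt3l moved from rank 2 to rank 4, below Uhrf1 and Dnmt1, and the order was otherwise the same at 18 h and 24 h. At 0 h neighbours in this order had separate ranges except Tdg and Dnmt3a, and Tet3 and Tet2. At 18 h and 24 h the ranges of Dnmt1 and Dnmt3l overlapped, as did those of Tdg and Dnmt3a, and Tet3 and Tet2 no longer did. The means at 0 h were also set against the mean of each tested gene over all libraries, those with dox included. On that scale the mean of Dnmt3b at 0 h was above 98.4% of the genes tested, that of Dnmt3l above 96.5% and that of Tet2 above 39.9%.

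Among the partners of DNA methylation, 1 of 20 genes was higher and 3 were lower at 24 h in limma, against 6.52% and 5.11% of all genes tested, so the higher count was near the background. The median log2 fold-change of the list was -0.13, against 0.00 for all genes tested. Dppa3, which binds Uhrf1 and hinders maintenance methylation, rose from 36.1 ± 7.92 to 72.2 ± 20.5 FPKM (0.98 ± 0.261 on the log2 scale, adjusted p of 0.0420). Zfp57, a zinc finger protein that preserves methylation at imprinted regions, fell from 28 ± 4.54 to 19.4 ± 3.08 FPKM (-0.52 ± 0.141, adjusted p of 0.0442). Ehmt2, the histone H3 lysine 9 methyltransferase G9a, fell from 26.2 ± 1.39 to 18.5 ± 1.51 FPKM (-0.50 ± 0.0880, adjusted p of 0.00925), and Cdca7l, a relative of the Hells partner Cdca7, fell from 15.8 ± 1.66 to 12.6 ± 0.319 FPKM (-0.32 ± 0.0803, adjusted p of 0.0352). With the replicate block 3 were higher and 5 lower, against 13.6% and 12.5% of all genes. At 18 h Zfp57 and Ehmt2 were lower and 0 genes higher, against 3.72% and 4.27% of all genes. With the block 3 were lower and 2 higher at 18 h, against 10.7% and 10.8% of all genes. At 24 h a single library left out gave 1 to 3 genes in limma, with 1 without replicate 1 at 0 h, replicate 3 at 18 h or replicate 1 at 24 h and 2 without replicate 2 at 0 h, 18 h or 24 h or replicate 3 at 24 h.

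Among the genes of base excision repair and other partners of demethylation, 4 of 21 were higher and 0 lower at 24 h in limma, against 6.52% and 5.11% of all genes, with a median log2 fold-change of -0.02. Gadd45g and Gadd45b, stress-inducible genes that have been linked to repair-based demethylation, were both higher. Gadd45g went from 3.89 ± 0.794 to 12.5 ± 3.0 FPKM (1.66 ± 0.194, adjusted p of 0.00157) and Gadd45b from 23.7 ± 3.47 to 39.0 ± 3.87 FPKM (0.72 ± 0.111, adjusted p of 0.00572). The third Gadd45 gene, Gadd45a, did not pass at 24 h, with a log2 change of -0.15 ± 0.137 (adjusted p of 0.499), and the change at 18 h was -0.33 ± 0.137 (adjusted p of 0.170, and 0.0321 with the block). Ogt, the O-GlcNAc transferase that binds Tet proteins, rose from 25 ± 2.17 to 31.7 ± 0.594 FPKM (0.34 ± 0.0677, adjusted p of 0.0149). Mbd4, a glycosylase that binds methylated CpG, rose from 3.65 ± 0.0077 to 4.48 ± 0.0322 FPKM (0.29 ± 0.0714, adjusted p of 0.0333). With the block 6 were higher and 3 lower, against 13.6% and 12.5% of all genes, so the lower count was near the background. At 18 h 2 were higher and 1 lower, against 4.27% and 3.72% of all genes. With the block 5 were higher and 5 lower at 18 h, against 10.8% and 10.7% of all genes. Gadd45g and Gadd45b were higher at 18 h without the block too. Ogt and Mbd4 did not pass then (adjusted p of 0.0545 and 0.05003 in limma), but both passed as higher with the block (0.0165 and 0.0182). The lower gene without the block was Idh1, an enzyme that makes the Tet cosubstrate 2-oxoglutarate. Idh1 was at 33.8 ± 2.85 FPKM at 0 h, 22.8 ± 1.22 FPKM at 18 h (-0.57 ± 0.0743, adjusted p of 0.00359) and 29.4 ± 1.49 FPKM at 24 h (-0.20 ± 0.0743, adjusted p of 0.114, and 0.0435 with the block). At 24 h, without replicate 2 or replicate 3 at 24 h 2 genes passed.

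Of the 8 genes of the methyl-CpG-binding domain family and related zinc finger readers, 2 were higher and 0 lower at 24 h in limma, against 6.52% and 5.11% of all genes, with a median log2 fold-change of 0.11. These were Mbd4, which is in both lists, and Zbtb4, a zinc finger protein, which rose from 0.392 ± 0.114 to 0.770 ± 0.0936 FPKM (0.84 ± 0.212, adjusted p of 0.0356 in limma). With the block 2 were higher and 1 lower, against 13.6% and 12.5% of all genes, the latter being Mbd3, a family member of the NuRD complex that does not itself bind methylated CpG selectively in mammals (-0.22, adjusted p of 0.132 in limma without the block and 0.0253 with it). At 24 h no gene of this list passed without replicate 1 or 2 at 0 h, replicate 2 or 3 at 18 h, or replicate 2 or 3 at 24 h, and 1 did without replicate 3 at 0 h or replicate 1 at 24 h. At 18 h none passed in limma, 2 had an unadjusted p under 0.05 and none passed in edgeR. In DESeq2 2 passed, against 1298 higher and 1165 lower of 19210 genes. With the block in limma 1 gene, Mbd4, was higher at 18 h and 0 lower, against 10.8% and 10.7% of all genes.

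None of the 14 tested genes among 15 germline genes that are known to be silenced by promoter methylation passed in limma at 24 h, 2 had an unadjusted p under 0.05, none passed in edgeR and 1 in DESeq2. DESeq2 passed 1685 of all 19210 genes as higher and 1423 as lower. The median log2 fold-change of the 14 germline genes was -0.37, with 12 below 0 and 2 above. With the block 5 were lower and 0 higher, against 12.5% and 13.6% of all genes. At 18 h none passed in limma, edgeR or DESeq2 and none had an unadjusted p under 0.05. With the block in limma 4 were lower at 18 h and 0 higher, against 10.7% and 10.8% of all genes. The most changed of those lower at 24 h was Rpl10l, a testis form of a ribosomal protein, with 3.90 ± 1.80 FPKM at 0 h and 1.9 ± 0.883 FPKM at 24 h (-1.0 ± 0.412, adjusted p of 0.149 in limma and 0.00143 with the block).

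S phase genes were examined because Dnmt1 and Uhrf1 are expressed with the replication machinery. At 24 h 7 of the 16 were lower in limma and 0 higher, against 5.11% and 6.52% of all genes, with a median log2 fold-change of -0.20, while Dnmt1 was at 0.01 and Uhrf1 at 0.09. Cdt1, which loads the replicative helicase, fell from 92.3 ± 3.25 to 69.3 ± 8.64 FPKM (-0.42 ± 0.0891, adjusted p of 0.0192). Gins2, a subunit of the active helicase, fell from 19.2 ± 0.624 to 14.9 ± 0.857 FPKM (-0.36 ± 0.0613, adjusted p of 0.00853). The helicase subunits Mcm7 (-0.32 ± 0.0840, adjusted p of 0.0404) and Mcm3 (-0.28 ± 0.0598, adjusted p of 0.0198) fell as well. The fall was not shared by the whole list, as 11 of the 16 genes were below 0 and 5 above. Cdc6 was higher by 0.34 ± 0.0962, with an adjusted p of 0.0503 in limma and 0.0315 with the block. With the block 8 were lower and 1 higher, against 12.5% and 13.6% of all genes. At 18 h Cdt1 and Gins2 were lower and 0 higher, against 3.72% and 4.27% of all genes. With the block 6 were lower and 1 higher at 18 h, against 10.7% and 10.8% of all genes. The number passing at 24 h was 1 without replicate 1 at 0 h, replicate 2 at 24 h or replicate 3 at 24 h, and 4 without replicate 3 at 0 h or replicate 2 at 18 h. The difference between these genes and Dnmt1 or Uhrf1 was not tested.

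**Figure D4:**
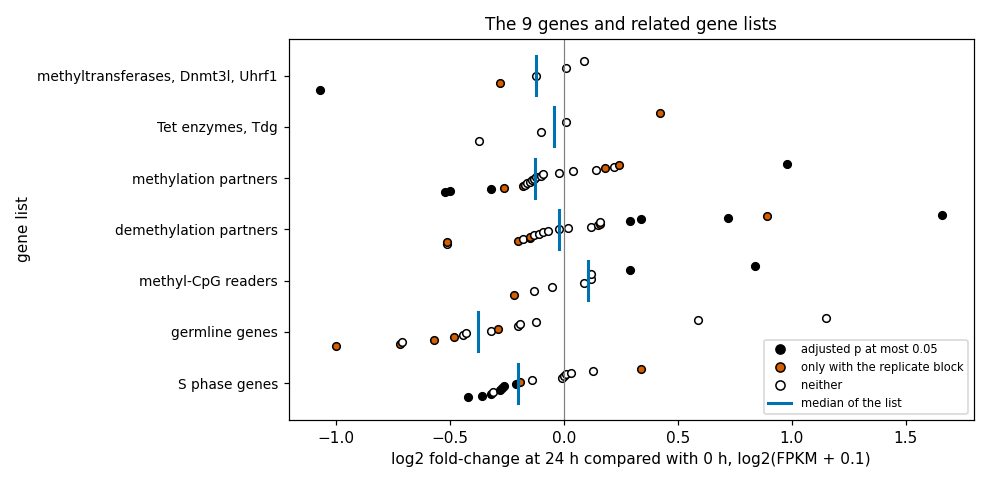
Log2 fold-change at 24 h compared with 0 h (x axis, log2(FPKM+0.1)) of each gene (points) in the 2 groups of members and in 5 related lists (rows), with the list median as a blue line. Filled black points passed in limma and orange points passed only with the replicate block. Dnmt3l is the leftmost point of all rows at -1.07 and Gadd45g the rightmost at 1.66.

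The promoter windows of the 9 genes differed in their CpG content. Over all RefSeq windows the median was 7 CpG dinucleotides per 300 bases, with quartiles of 3 and 20. The 3 windows of Dnmt3l held 6, 4 and 3 CpG, so each was below the median. The window of Tet2 held 57, that of Dnmt3b 30, that of Tdg 26, that of Tet3 22 and that of Tet1 17. The windows of Dnmt3a held 46, 47 and 18, those of Uhrf1 12 and 33 and those of Dnmt1 2, 12 and 33. Thus Dnmt3l was the member without a window above the median. This is a description of annotated starts and says nothing of methylation at them.

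**Figure D5:**
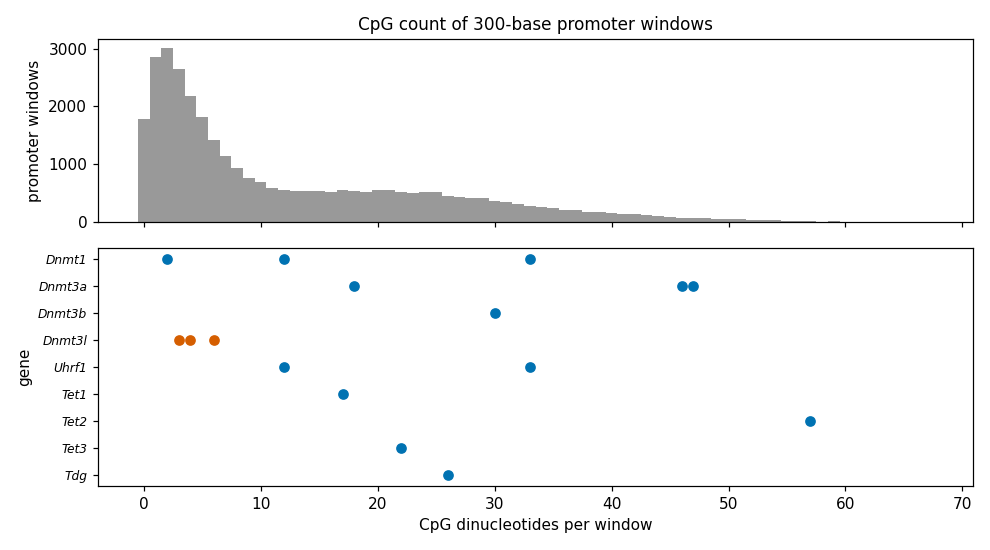
Number of CpG dinucleotides (x axis) in 300-base promoter windows, with the count of all RefSeq windows (top, grey bars) and the windows of each gene (bottom, 1 point for each annotated start). The windows of Dnmt3l (orange) lie at 3 to 6, and the other 8 genes (blue) each have at least 1 window at 12 or more.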

How the data were processed

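RNA-seq libraries from 9 samples (3 biological replicates for each of 0, 18 and 24 h of dox) were analysed, grouped by the sample titles. The authors prepared stranded poly(A) libraries, trimmed reads with cutadapt 1.9, aligned them with STAR to GRCm38 and used edgeR 3.16.5. The counter, its use of strand and of reads with several alignments and the annotation release are not given in the sources used here. The authors deposited FPKM for 47729 genes. The filtered table that they deposited holds a signal, CPM on an effective library size, for 19210 genes. Division by the value of 1 read gave whole reads for 100% of values (tolerance 0.01). The log2 fold-changes and p-values of the authors' own comparisons, also deposited, were not used.

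limma 3.58.1 in R 4.3.3 was fitted with an intensity trend to log2(FPKM+0.1) of all 9 libraries and 17951 genes, without a replicate block, with Benjamini–Hochberg adjustment over all genes. Such fold-changes understate the change of low genes. Same-numbered libraries deviated together (r of 0.211 to 0.548 over 11893 genes, 9 pairs; different numbers -0.399 to 0.110), so the numbers were taken to pair the samples. Fits with the block are given where they change the call of a member or the count of a related list. Alternatives were pseudocounts of 1 and 0.01, no filter, a filter at a mean FPKM of 1, normalization by quantiles or by the median, only the time points compared, the block and each library left out. Ratios were compared by two-sided exact permutation tests over libraries. edgeR 4.0.16 (quasi-likelihood) and DESeq2 1.42.0 were run on the recovered reads. The scripts were tested on simulated data. Replicates were distinct libraries (chi-square per degree of freedom of 5.79 to 17.8). Coordinates came from GENCODE M21 and promoter windows from RefSeq GRCm38.p6, which matched all 9 genes. Python 3.11.15 with pandas 2.3.3 and scipy 1.17.1 was used.

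The members and lists were chosen with earlier results of these data known. The named genes were all members, up to 4 passing genes in each related list with the largest change at 24 h, Tcf3, overlapping or near-identical genes, and the 3 genes most like each of the 4 members that changed most. Nanog, Pou5f1, Klf4, Tfcp2l1, Dppa5a, Pdgfrb, Gadd45a, Idh1, Mbd3, Rpl10l, Cdc6 and the detected fibroblast markers were named after their values were seen.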

Additional observations from a re-analysis of the deposited data

How the results depend on the processing

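Of 540 refits of the log2 fold-changes of single members, 495 kept direction and side of the threshold. At 18 h the number of members passing was 1 in edgeR, in DESeq2 and at a mean FPKM of at least 1 (Dnmt3l in each), 2 with the replicate block and 5 in edgeR with the block. Over all genes, edgeR with the block then passed 2675 as higher and 2507 as lower, of 19210. At 24 h the number of members passing was 3 in DESeq2 and with the replicate block (the same genes, Dnmt3b, Dnmt3l and Tet3) and 4 in edgeR with the block. Over all genes DESeq2 passed 1685 as higher and 1423 as lower at 24 h. Between 18 h and 24 h 1 member passed in edgeR with the block, against 157 higher and 56 lower over all genes. Single libraries left out gave 0 to 1 passing members at 18 h and at 24 h, also with the minimum fold-change. Under quantile normalization 0 members passed the minimum fold-change at 24 h.

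Over all genes the number passing at 24 h in limma, 1171 higher and 917 lower, was 2434 and 2243 with the replicate block, 604 and 461 with only the compared time points, 463 and 320 without replicate 3 at 24 h and 531 and 313 without replicate 2 at 24 h. In edgeR with the block it was 3157 and 2867.

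For the related lists at 24 h, the replicate block gave 8 methylation partners, 9 demethylation partners and 5 germline genes. edgeR with the block gave 11, 8 and 6, against 3157 higher and 2867 lower of all 19210 genes. DESeq2 gave 1 germline gene, against 1685 higher and 1423 lower of all genes. Median centring gave 7 methylation partners and 1 reader. Without a filter on FPKM 1 methylation partner, 1 reader and 4 S phase genes passed. With only the compared time points 1, 0 and 1 passed. Quantile normalization gave 1 reader and 4 S phase genes, and a mean FPKM of at least 1 gave 1 reader. Single libraries left out gave 1 to 3 methylation partners, 2 to 4 demethylation partners, 0 to 2 readers and 1 to 7 S phase genes.

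Signs turned only for changes near 0 that passed in no fit. At 24 h compared with 0 h Dnmt1 was at -0.001 in DESeq2 and -0.065 with median centring (-0.005 to 0.023 with libraries left out), and Tet1 at -0.007 in DESeq2, -0.00038 in edgeR and -0.067 with median centring (-0.119 to 0.147). At 24 h compared with 18 h Dnmt3a was at -0.011 with median centring (-0.085 to 0.196), and under quantile normalization Uhrf1 at 0.023 (-0.054 to 0.072) and Tet2 at -0.0007016 (-0.085 to 0.209). With libraries left out Tet3 ranged from -0.051 to 0.163 and Tdg from -0.026 to 0.040 there. The Tet1 share differed by -3.19 to 0.558 percentage points with libraries left out, and the log2 ratio of Dnmt3b to Dnmt3a by -0.196 to -0.116. With the replicate block, an exact sign-flip test within pairs gave a p of 0.25 for that ratio, the smallest that 3 pairs can give, and 1.0 for the Tet1 share. The cause of these differences between settings was not tested. Members that did not pass are not shown to be unchanged.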

Other observations

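The genes whose level over the 9 libraries was most like that of the 4 members that changed most at 24 h were taken among the 11893 genes that reached a mean of 1 FPKM, by Pearson's r of log2(FPKM+0.1). These are descriptions over libraries that share replicate numbers and time points. For Dnmt3l they were Gldc, a subunit of the glycine cleavage system (r = 0.995), Mcm7 (r = 0.995) and Mkrn1 (r = 0.994). Gldc went from a mean of 112 FPKM at 0 h to 66.0 FPKM at 24 h, a change of -0.77 in log2 with an adjusted p of 0.0221 in limma, and Mkrn1 from 154 to 114 FPKM (-0.43, adjusted p of 0.0387). For Tet3 they were Kif1b (r = 0.991), Ric1 (r = 0.989) and Vezf1 (r = 0.985), with log2 fold-changes of 0.36, 0.32 and 0.46 that did not pass in limma. For Tet2 they were Tfcp2l1, a transcription factor of naive pluripotency (r = 0.977), Odf2 (r = 0.972) and Mrps24 (r = 0.968). For Dnmt3b they were Wdr55 (r = 0.987), Pfdn2 (r = 0.986) and Atox1 (r = 0.982).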
